A study of Mus musculus with 4 samples.

Results

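The transcripts of 33 genes that carry glucose into the cell, break it down to pyruvate and lactate, or divert it into the pentose phosphate pathway were followed in mouse type 1 innate lymphoid cells (ILC1s), lymphocytes that stay in tissues and are close to natural killer cells. The genes were taken by symbol from the count table of 40481 genes, and 33 of 33 were present and passed the filter on low counts that left 14863 genes for testing. The 4 libraries held ILC1s that carry CD49a on their surface. Controls (libraries 1 and 2) came from Inpp4b flox/flox mice. The knockout-labelled libraries (3 and 4) came from Ncr1-iCre Inpp4b flox/flox mice, so that both groups share the floxed alleles and differ by the iCre transgene and what it deletes. The Cre is named for Ncr1, the gene of the receptor NKp46, which is used by natural killer cells and ILC1s. Liver is given as the tissue of control library 1, and the others name only the cell type. Nothing in the labels gives the age or sex of the mice, or says whether a library was pooled or came from its own animal, so p-values measure the spread between these libraries, which may be technical.

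Glycolysis turns glucose into pyruvate in 10 enzymatic steps. Lymphocytes that are activated use it to regenerate NAD+ by making lactate, which leaves the cell through monocarboxylate transporters. The pentose phosphate pathway branches off at glucose-6-phosphate, yields NADPH and ribose phosphate in its oxidative arm, and returns sugars to glycolysis in its non-oxidative arm. Several steps can be run by more than 1 gene, and these isozymes differ in affinity, regulation and tissue. INPP4B, the phosphatase the study targets, acts on a phosphoinositide upstream of the kinase AKT, and AKT is known to promote glucose uptake and glycolysis.

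Library totals lay between 42380840 and 54878210 counts. Inpp4b itself was at 78.7 and 106.5 CPM (counts scaled to library size with TMM factors) in controls and at 142.5 and 86.0 CPM in knockout-labelled libraries. The targeted transcript, counted over the whole gene, was therefore not lower there (log2 fold change 0.30, SE 0.28, adjusted p = 0.828 by edgeR), and each direction below is that of the labels. The deleted exons are not given in the sources used here, so this value does not check the deletion. The 15 ILC1 markers summed to 18850 and 19940 CPM in controls and to 23330 and 26080 CPM in knockout-labelled libraries, with 9 of 15 higher and 0 of 15 at 0 counts in every library. The granzyme genes Gzma (3694 and 4126 against 6110 and 7481 CPM) and Gzmb (3387 and 3518 against 5120 and 5797 CPM) were large parts of these sums. The median log2 fold change of the 15 was 0.10, and 6 were below 0. edgeR called 0 of 15. Unadjusted, 4 were higher (26.7%, beside 4.48% of all genes) and 1 was lower (6.67%, beside 5.17%). DESeq2 called Gzma, Gzmb and Ifng higher (adjusted p = 0.00111, 0.00407 and 0.00776, beside 1.61% of genes). It called Ncr1 lower (adjusted p = 0.0149, beside 1.29%). Of the defining surface genes, Itga1 (CD49a) was at 217.6, 207.9, 178.9 and 206.0 CPM and Ncr1 at 1672, 1772, 1202 and 1077 CPM in libraries 1 to 4. Both lay lower in the knockout-labelled libraries without overlap. The summed level of 24 myeloid markers was 632.4 and 773.2 CPM in controls, against 2815 and 3418 CPM in knockout-labelled libraries, with 18 of 24 higher by their means and 0 of 24 at 0 counts in every library. The 15 T cell markers summed to 2514 and 2475 against 3033 and 4188 CPM, with 11 of 15 higher. Cd3g was the largest part of each of these sums (1469 and 1255 against 1623 and 1930 CPM). Single markers differed more, with Trac at 7.31 and 5.67 against 85.1 and 200.9 CPM and Cd3e at 26.5 and 15.1 against 152.5 and 371.0 CPM. Of the 13 tested, 4 had a log2 fold change below 0. The 14 hepatocyte markers summed to 293.1 and 143.2 against 422.0 and 292.4 CPM, so these sums overlapped, with 11 of 14 higher. Apoe had the widest gap between the group means, at 78.3 and 16.8 against 221.5 and 89.3 CPM. The median log2 fold change of the 14 was 0.22, and 3 were below 0. For the 13 natural killer cell markers the sums were 291.4 and 252.4 against 555.7 and 1129 CPM, with 12 of 13 higher. The widest gaps between group means in this list were those of Klra7 and Klra1. Klra7 was at 27.8 and 37.5 against 250.8 and 520.6 CPM, and Klra1 at 3.74 and 5.97 against 19.0 and 327.5 CPM. For 14 markers of B, erythroid, platelet and endothelial cells the sums were 496.2 and 384.6 against 332.5 and 996.6 CPM, with 9 of 14 higher. In none of these 5 lists of other cells was a marker at 0 counts in every library. edgeR called higher 9 of 21 tested myeloid, 1 of 13 T cell and 1 of 12 natural killer cell markers, beside 0.141% of all genes. It called 0 of the other 2 lists. DESeq2 called higher 11, 5 and 3 of these and 1 of 14 hepatocyte markers (Hp), beside 1.61% of genes, and 0 of the last list. Neither tool called a marker of these 5 lists lower. The part that other cells play in the values below was not tested.

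The sequences upstream of 4 of the genes are shown because Hk2, Slc16a3 and Pdk1 had the largest fold changes among the members that also passed an unadjusted p under 0.05, and Slc16a1 is the partner of Slc16a3 in lactate transport. Each line gives the 250 bases before the RefSeq transcript start (GRCm38.p6), 5′ to 3′ on the gene's strand. Capitals mark ACGTG on either strand, the core that hypoxia-inducible factor is known to bind. The letters CACGTG, which hold it on both strands, are the E-box that MYC and USF proteins are known to bind.
Slc16a3: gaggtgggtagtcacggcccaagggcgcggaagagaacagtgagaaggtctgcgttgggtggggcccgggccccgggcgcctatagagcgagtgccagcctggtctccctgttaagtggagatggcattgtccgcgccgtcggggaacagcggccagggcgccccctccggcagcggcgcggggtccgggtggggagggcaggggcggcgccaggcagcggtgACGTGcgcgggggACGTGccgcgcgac
Slc16a1: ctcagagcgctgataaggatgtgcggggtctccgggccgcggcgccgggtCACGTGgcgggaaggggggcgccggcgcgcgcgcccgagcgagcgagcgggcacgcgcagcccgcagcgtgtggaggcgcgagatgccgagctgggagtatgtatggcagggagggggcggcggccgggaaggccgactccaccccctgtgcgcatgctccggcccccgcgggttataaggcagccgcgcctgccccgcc
Hk2: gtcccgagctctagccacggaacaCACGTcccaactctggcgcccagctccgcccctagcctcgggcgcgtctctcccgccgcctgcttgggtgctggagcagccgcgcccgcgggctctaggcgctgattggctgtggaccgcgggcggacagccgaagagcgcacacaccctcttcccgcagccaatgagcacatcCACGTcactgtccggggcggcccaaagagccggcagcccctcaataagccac
Pdk1: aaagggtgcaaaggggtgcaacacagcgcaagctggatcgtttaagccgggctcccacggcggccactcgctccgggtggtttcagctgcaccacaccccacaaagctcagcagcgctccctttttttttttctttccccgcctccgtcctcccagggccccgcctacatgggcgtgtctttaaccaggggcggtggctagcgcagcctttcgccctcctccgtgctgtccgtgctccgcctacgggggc
The Slc16a3 window (chr11:120948817-120949066, plus strand) holds ACGTG at 27 and 14 bases before the start. The Slc16a1 window (chr3:104638414-104638663, plus strand) holds 1 CACGTG, at 200 bases before the start. The Hk2 window (chr6:82774455-82774704, minus strand) holds the core on the opposite strand at 226 and 52 bases before the start, and the first listed Pdk1 window (chr2:71872974-71873223, plus strand) holds 0. Of the members, 32 had an entry, and Slc2a3 had none. With the first window of each gene, 13 of 32 members (40.6%) held ACGTG, beside 21.6% of 9969 tested genes and 16.6% of 27025 genes in the table. The E-box letters were in 4 of 32 (12.5%) beside 8.32% of the tested genes. These are matches of letters, not shown sites.

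Per length, the same few isozymes dominated in all 4 libraries. Aldoa, the muscle-type aldolase of most cells, was the most abundant member per length, at 347.3 ± 62.9 CPM per kb of merged exon in controls and 391.9 ± 60.5 in knockout-labelled libraries (SD, n = 2 each). Pkm (pyruvate kinase), Ldha (the lactate-forming dehydrogenase subunit) and the pentose phosphate gene Taldo1 (transaldolase) followed in controls at 170.2 ± 44.3, 153.7 ± 17.4 and 143.8 ± 1.38 CPM per kb. Pkm and Ldha were not apart in their control libraries, nor were Ldha and Taldo1. At the bottom stood Slc16a1 at 0.269 ± 0.0054 and Hk2 at 0.107 ± 0.0087 CPM per kb. Of the 32 neighbouring pairs in the order of control levels, 15 did not overlap between the control libraries and 17 did. Over all 4 libraries 6 pairs did not overlap and 26 did. The 33 genes together took 0.537% and 0.602% of all counts in controls and 0.610% and 0.664% in knockout-labelled libraries, and Aldoa, Pkm, Eno1 and Ldha held between 50.5% and 53.6% of the members' counts.

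**Figure D1:**
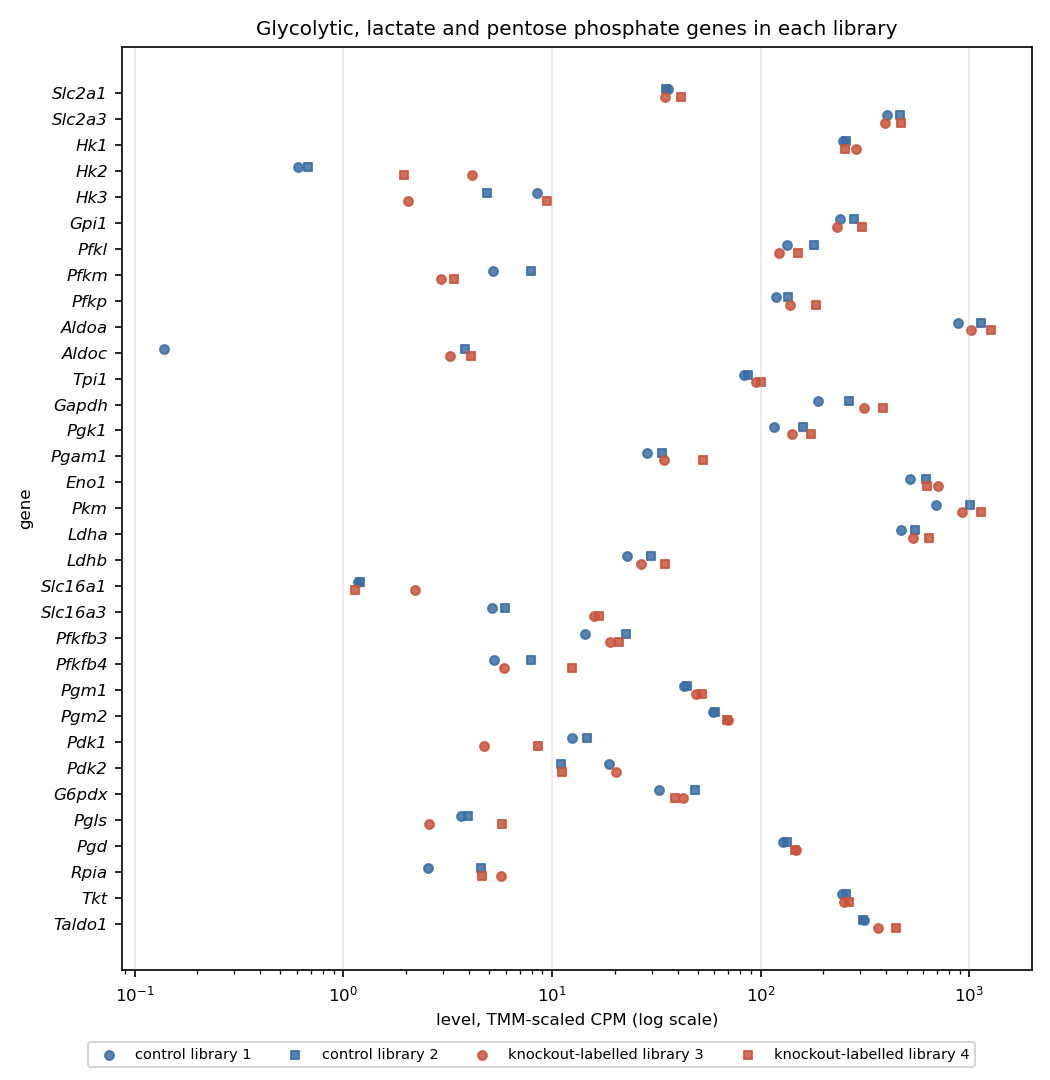
Level of each of the 33 genes in each library, in TMM-scaled CPM on a log axis, in pathway order from glucose transport to the pentose phosphate pathway. Blue marks controls and red the knockout-labelled libraries. Levels run from 0.138 CPM (Aldoc in library 1) to 1265 CPM (Aldoa in library 4), and Hk2 and Slc16a3 show the widest gaps between colours among genes whose groups do not overlap.

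For 26 of 33 members (78.8%, beside 66.4% of all genes) the log2 fold change between genotypes lay within 0.5 of 0. edgeR called 0 of 33 at an adjusted p under 0.05 beside 0.155% of all 14863 genes (0.141% higher and 0.0135% lower). In bulk libraries, fewer cells of a type and less RNA per cell cannot be told apart. DESeq2 called 1 of 33 (Slc16a3, higher) beside 2.9% of genes (1.61% higher and 1.29% lower). limma-voom called 0 of 33 beside 0.135% of genes (0.121% higher and 0.0135% lower). At an unadjusted edgeR p under 0.05, 4 members were higher (Hk2, Gapdh, Slc16a3 and Taldo1), or 12.1% beside 4.48% of all genes, and 1 was lower (Pdk1), or 3.03% beside 5.17%. Both knockout-labelled libraries lay above both controls for 12 members (36.4%, beside 19.5% of all genes) and below for 2 (6.06%, beside 20.8%). Abundant genes as a class leaned the same way: among the 1927 genes of at least 100 CPM on average, 36.0% lay above and 14% below, and of the 14 members at that level 5 lay above (35.7%) and 0 below. The median log2 fold change was 0.19 over the members and -0.01 over all genes tested. It was 0.18 for the 14 abundant members and 0.09 for all abundant genes. The log2 fold change was above 0 for 29 of 33 members (48.7% of all genes) and for 13 of the 14 abundant ones (64.3% of abundant genes).

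**Figure D2:**
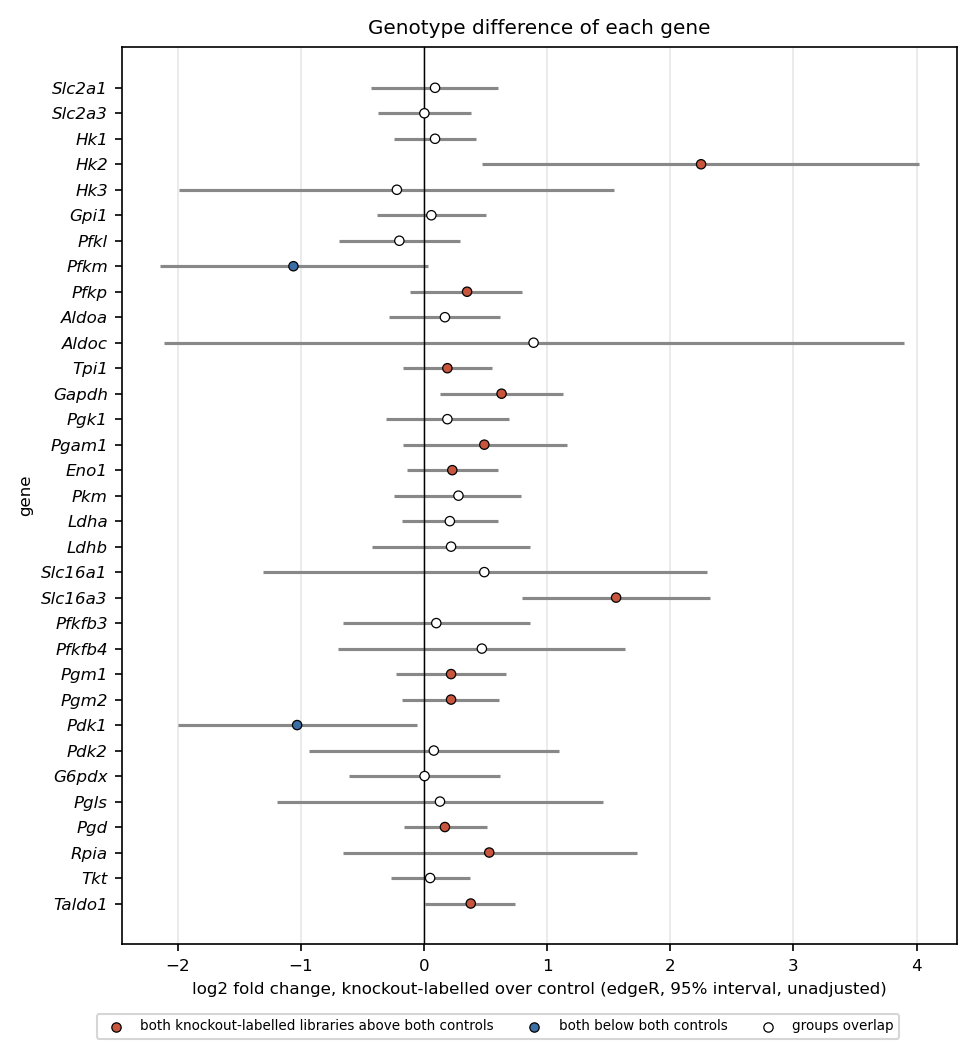
Log2 fold change of each gene, knockout-labelled libraries over control, with the unadjusted 95% interval of the edgeR fit. Filled points mark the 12 genes whose 2 knockout-labelled libraries both lay above the controls (red) and the 2 below (blue), and 0 of 33 passed an adjusted p under 0.05.

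Slc2a3 was the more abundant of the 2 glucose transporter transcripts among the members in both groups. Slc2a3, which encodes the high-affinity transporter GLUT3, was at 404.1 and 462.8 CPM in controls and at 395.9 and 472.9 CPM in knockout-labelled libraries. Slc2a1, which encodes the widespread GLUT1, was at 36.1 and 35.3 against 34.6 and 41.4 CPM. The groups overlapped for both genes. Per length, Slc2a3 made up 84.4% and 86.4% of the pair in controls and 84.7% in each library labelled knockout. The 95% interval of the log2 fold change was -0.37 to 0.38 for Slc2a3 and -0.43 to 0.60 for Slc2a1, so a doubling of either lay outside it.

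Hexokinase, which traps glucose as glucose-6-phosphate, was almost all Hk1, the isozyme of most resting tissues. Hk1 was at 248.2 and 257.5 CPM in controls and at 285.0 and 253.1 CPM in knockout-labelled libraries, and its per-length share of the 3 hexokinases lay between 91.1% and 96.4% in the 4 libraries. Hk2, the inducible isozyme of muscle, tumours and activated lymphocytes, was barely present, with 35 and 32 counts in controls and 178 and 101 counts in knockout-labelled libraries. That is 0.604 and 0.677 against 4.14 and 1.95 CPM, and the groups did not overlap. Its log2 fold change of 2.25 (SE 0.74) did not pass the threshold (adjusted p = 0.415 by edgeR, DESeq2 adjusted p = 0.166, and 0.166 to 0.821 over 14 alternatives). The share of Hk2 at its step went from 0.321% and 0.359% to 2% and 1%, so Hk1 remained the main isozyme. With 2 libraries against 2 an exact two-sided permutation test cannot go below p = 0.333, which this share reached.

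Hk3 is a hexokinase typical of myeloid cells. Its level was 8.52 CPM in library 1, 4.89 in library 2, 2.05 in library 3 and 9.43 in library 4. Library 3 was the lowest and library 4 the highest of the 4, so the groups overlapped (log2 fold change -0.22, SE 0.73, adjusted p = 0.982 by edgeR). Its log2 fold change ranged from -1.75 to 0.46 without 1 library. The summed myeloid markers were higher in both knockout-labelled libraries, and their part in the level of Hk3 was not tested.

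At the phosphofructokinase step, the committed step of glycolysis, the groups did not overlap in the share of any of the 3 genes. The 3 shares add up to the whole in each library, so these are not 3 separate results. Pfkl, the liver-type subunit, led in all 4 libraries, with 65.7% and 68.3% of the per-length level in controls and 62.1% and 60.4% in knockout-labelled libraries. Pfkp, the platelet-type subunit, held 29.1% and 25.6% in controls and 34.9% and 36.9% in knockout-labelled libraries. Pfkm, the muscle-type subunit, held 5.17% and 6.03% against 2.97% and 2.72%. The exact two-sided permutation p was 0.333 for each share, the smallest this design gives, so the test cannot separate these differences from chance. The mean share of Pfkp was 8.51 percentage points higher and that of Pfkl 5.76 lower, stated as knockout minus control of 8.51 and -5.76.

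Single levels at that step did not pass the test. Pfkm was at 5.24 and 7.96 CPM in controls and at 2.93 and 3.40 CPM in knockout-labelled libraries, without overlap (log2 fold change -1.06, SE 0.45, adjusted p = 0.529 by edgeR). Pfkp was at 118.5 and 135.7 against 138.1 and 184.9 CPM (0.35, SE 0.19, adjusted p = 0.64 by edgeR). Pfkl was at 133.2 and 180.3 against 122.4 and 151.0 CPM, with overlap. Without division by length, Pfkp therefore lay above Pfkl in both knockout-labelled libraries and below it in both controls. Pfkp shares exon sequence with the neighbouring gene Pitrm1, and the strand setting of the counting is not given in the sources used here, so part of the Pfkp count is uncertain.

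The other preparatory enzymes lay close to each other between groups. Gpi1 (glucose-6-phosphate isomerase) was at 239.6 and 280.0 against 233.1 and 307.1 CPM, and Aldoa at 881.5 and 1140 against 1016 and 1265 CPM. In both cases control library 1 and library 3 were the lower ones of their groups and the groups overlapped. Gpi1 is uncertain, because its copy Gm1840, 98.7% identical over 1046 bases, held between 6.15% and 14.4% of its count. Tpi1 (triosephosphate isomerase) was at 83.3 and 87.4 against 94.8 and 100 CPM, without overlap but with a log2 fold change of only 0.19 (SE 0.15, adjusted p = 0.792 by edgeR). Aldoc, the brain-type aldolase, had 8 counts in control library 1 and 181, 140 and 212 counts in libraries 2, 3 and 4. It never exceeded 0.299% of the per-length level that it forms with Aldoa.

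**Figure D3:**
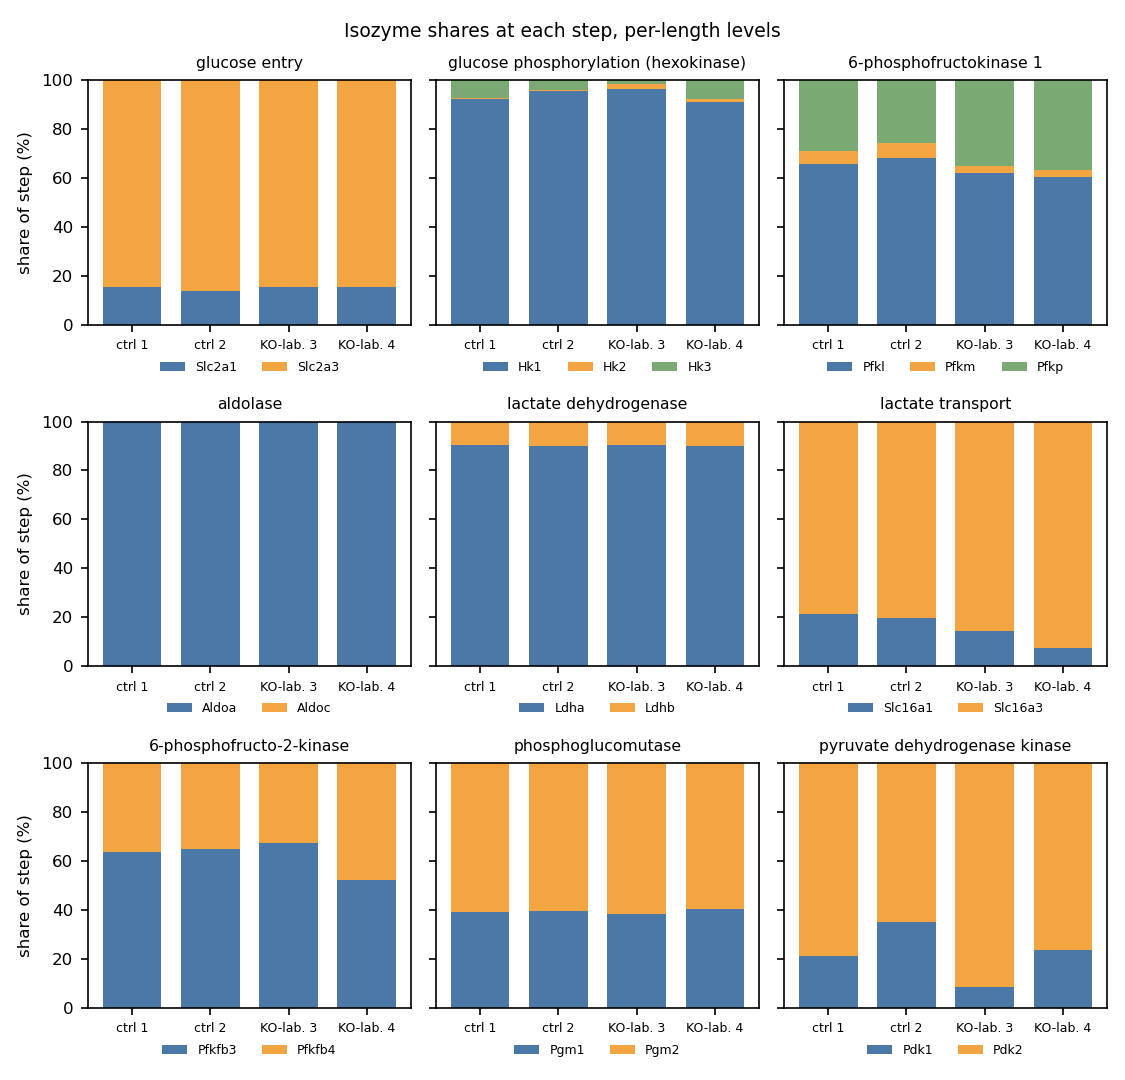
Share of each isozyme in the summed per-length level of the members at its step, in percent, for the 9 steps with more than 1 member. Control libraries 1 and 2 and libraries 3 and 4 labelled knockout are shown, and isozymes outside the members do not enter. The leading isozyme was the same in all 4 libraries at each of the 9 steps, and the groups do not overlap for the 3 shares of phosphofructokinase 1, both shares of lactate transport and the share of Hk2.

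In the payoff phase, where ATP and pyruvate are made, all 5 fold changes were above 0 and none passed the test. Above 0 were also 48.7% of all genes tested and 64.3% of genes of at least 100 CPM on average. Gapdh, the NADH-forming dehydrogenase, was at 187.7 and 264.3 CPM in controls and at 314.0 and 385.2 CPM in knockout-labelled libraries. Both of the latter lay above both controls, and the log2 fold change was 0.63 (SE 0.21, adjusted p = 0.417 by edgeR, and 0.027 to 0.767 over 14 alternatives). It was called only without a filter on low counts, where 2 members were called (Slc16a3 and Gapdh, both higher) beside 2.35% of 23999 genes (1.25% higher and 1.1% lower). Gapdh has 95 other annotated genes with at least 300 bases at 95% identity or more, and these held between 5.86% and 14% of the Gapdh count. Reads that fit several copies may be lost or split, so the level of Gapdh is uncertain. With the copies added its log2 fold change was 0.60 (adjusted p = 0.395 by edgeR), a setting chosen after the data were seen.

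Pkm was at 694.3 and 1008 CPM in controls and at 925.3 and 1138 CPM in knockout-labelled libraries. Library 3 lay below control library 2, so the groups overlapped (log2 fold change 0.28, SE 0.21, adjusted p = 0.78 by edgeR). Counts are per gene, so the M1 and M2 splice forms of pyruvate kinase cannot be told apart. Eno1 (enolase) was at 520.7 and 618.5 against 709.0 and 627.5 CPM, with library 4 just above control library 2. Its near-identical copy Eno1b, 99.5% identical over 1736 bases, held 5420 and 5584 counts in controls and 3041 and 5995 in knockout-labelled libraries, so Eno1 is uncertain too.

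Pgk1 (phosphoglycerate kinase) was at 115.8 and 159.8 against 141.0 and 173.5 CPM, with overlap. Pgam1 (phosphoglycerate mutase) was at 28.6 and 33.7 against 34.5 and 53.2 CPM, without overlap, and library 4 stood apart from the rest. It had the lowest per-length level of the linear chain below Gapdh, at 15.7 ± 1.83 CPM per kb in controls against 61.4 ± 13.9 for Pgk1 and 105.9 ± 12.9 for Eno1. The log2 fold change of Pgam1 was 0.49 (SE 0.27, adjusted p = 0.648 by edgeR).

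Lactate handling held the only member that any filtered fit called. Slc16a3 (ENSMUSG00000025161, mm10 chr11:120948480-120960868, plus strand) encodes MCT4, a low-affinity lactate exporter of glycolytic cells. It was at 5.16 and 5.95 CPM in controls (299 and 281 counts) and at 15.9 and 16.9 CPM in knockout-labelled libraries (681 and 873 counts). Replicates lay close together and the groups far apart, a 2.95-fold difference. The log2 fold change was 1.56 (SE 0.32, unadjusted 95% interval 0.80 to 2.32). It did not pass in edgeR (adjusted p = 0.245), was called by DESeq2 (adjusted p = 0.00121) and ranged from 0.00121 to 0.612 over 14 alternatives. Without any 1 library it stayed between 1.46 and 1.67. The summed myeloid markers were also higher in both knockout-labelled libraries (2815 and 3418 against 632.4 and 773.2 CPM), and their part in Slc16a3 was not tested.

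Slc16a1, which encodes the widespread transporter MCT1, was near the bottom of the range with 68 and 57 counts in controls and 95 and 59 counts in knockout-labelled libraries. That is 1.17 and 1.21 against 2.21 and 1.14 CPM, so the groups overlapped. Slc16a3 was the main transporter of the pair in every library, with a per-length share of 78.5% and 80.4% in controls and of 85.6% and 92.5% in knockout-labelled libraries. The groups did not overlap (exact two-sided permutation p = 0.333, the smallest possible). Bsg, whose product basigin brings both transporters to the membrane, was at 163.2 and 138.2 against 177.7 and 182.7 CPM (log2 fold change 0.26, adjusted p = 0.675 by edgeR).

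The dehydrogenase step kept its make-up. Ldha was at 467.8 and 549.4 CPM in controls and at 534.2 and 642.4 CPM in knockout-labelled libraries. Ldhb, the heart-type subunit that favours lactate use, was at 23.0 and 29.7 against 26.8 and 34.7 CPM. Both overlapped between groups, with adjusted p = 0.777 and 0.896 by edgeR. Ldha held 90.6%, 89.8%, 90.4% and 89.8% of the per-length level in libraries 1 to 4.

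Among the regulators, Pdk1 was the member with the lower level. Pyruvate dehydrogenase kinases block the entry of pyruvate into the citric acid cycle. Pdk1 was at 12.5 and 14.7 CPM in controls and at 4.70 and 8.52 CPM in knockout-labelled libraries, without overlap. Its log2 fold change of -1.03 (SE 0.40) did not pass (adjusted p = 0.494 by edgeR, DESeq2 adjusted p = 0.289, and 0.234 to 0.869 over 14 alternatives). Pdk2 was at 18.7 and 11.1 against 20.3 and 11.2 CPM. The 2 genotypes were alike there in showing 1 library near 20 and 1 near 11 CPM. Per length Pdk2 was the larger of these 2 members, with 78.7% and 64.9% in controls and 91.4% and 76.4% in knockout-labelled libraries. The groups overlapped (exact two-sided permutation p = 0.667). Pdk3, a kinase outside the members, was at 15.7 and 7.96 against 14.4 and 5.72 CPM and does not enter these shares.

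Pfkfb3 and Pfkfb4 make and remove fructose-2,6-bisphosphate, the main activator of phosphofructokinase 1. Pfkfb3 was at 14.4 and 22.6 against 18.9 and 20.9 CPM. Pfkfb4 was at 5.29 and 7.96 against 5.86 and 12.4 CPM. Both overlapped, and Pfkfb3 led with 63.7% and 64.7% of the pair in controls and 67.5% and 52.0% in knockout-labelled libraries.

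The phosphoglucomutases link glycolysis with glycogen and pentose metabolism. Pgm2 was at 59.0 and 60.4 against 69.9 and 69.0 CPM, and Pgm1 at 42.7 and 44.5 against 48.8 and 52.6 CPM. Both genes were slightly higher without overlap, with a log2 fold change of 0.22 each (SE 0.16 and 0.19, adjusted p = 0.772 and 0.81 by edgeR). Pgm1 shares exon sequence with the overlapping gene Itgb3bp (342 and 272 counts in controls, 551 and 532 in knockout-labelled libraries), so part of the Pgm1 count is uncertain. Their proportion hardly varied, since Pgm2 held between 59.7% and 61.8% in the 4 libraries.

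In the pentose phosphate pathway the non-oxidative genes Taldo1 and Tkt had the highest levels per length. Taldo1 was at 314.2 and 310.0 CPM in controls and at 364.5 and 445.3 CPM in knockout-labelled libraries, without overlap. Its log2 fold change was 0.38 (SE 0.15, unadjusted 95% interval 0.01 to 0.74, adjusted p = 0.505 by edgeR). Tkt (transketolase), the partner enzyme, was at 245.1 and 255.6 against 250.5 and 266.4 CPM, with an interval of -0.27 to 0.37. Per length, Taldo1 stood at 143.8 ± 1.38 and Tkt at 34.0 ± 1 CPM per kb in controls.

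Rpia (ribose-5-phosphate isomerase) was scarce, at 2.55 and 4.59 CPM in controls and at 5.70 and 4.62 CPM in knockout-labelled libraries, with library 4 barely above control library 2. G6pdx, the X-linked enzyme that starts the oxidative arm, was at 32.5 and 48.3 against 42.3 and 38.7 CPM. Both knockout-labelled libraries lay between the controls, and the interval of its log2 fold change was -0.61 to 0.62. Pgd, the second NADPH-forming dehydrogenase, was at 128.2 and 133.3 against 147.7 and 146.7 CPM, a tight pair in each group with a log2 fold change of 0.17 (SE 0.14, adjusted p = 0.799 by edgeR). Pgls (phosphogluconolactonase) was at 3.67 and 3.94 against 2.58 and 5.74 CPM, with both controls between the others. It shares exon sequence with the overlapping gene Fam129c, so part of its count is uncertain.

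Summed by arm, the levels were compared by exact permutation, which cannot go below p = 0.333 with 2 libraries against 2. The 5 payoff genes summed to 1547 and 2084 CPM in controls and to 2124 and 2378 CPM in knockout-labelled libraries, and the 3 non-oxidative pentose phosphate genes to 561.9 and 570.2 against 620.7 and 716.4 CPM. The oxidative arm summed to 164.4 and 185.5 against 192.6 and 191.1 CPM, and the phosphoglucomutases to 101.7 and 104.9 against 118.7 and 121.6 CPM. These 4 sums did not overlap between groups (exact two-sided permutation p = 0.333 each, the smallest possible). Sums of glucose transport, preparatory glycolysis, lactate handling and the regulators overlapped. All 33 members summed to 5082 and 6184 CPM in controls and to 6017 and 6949 CPM in knockout-labelled libraries (log2 ratio of means 0.20, exact two-sided permutation p = 0.667).

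**Figure D4:**
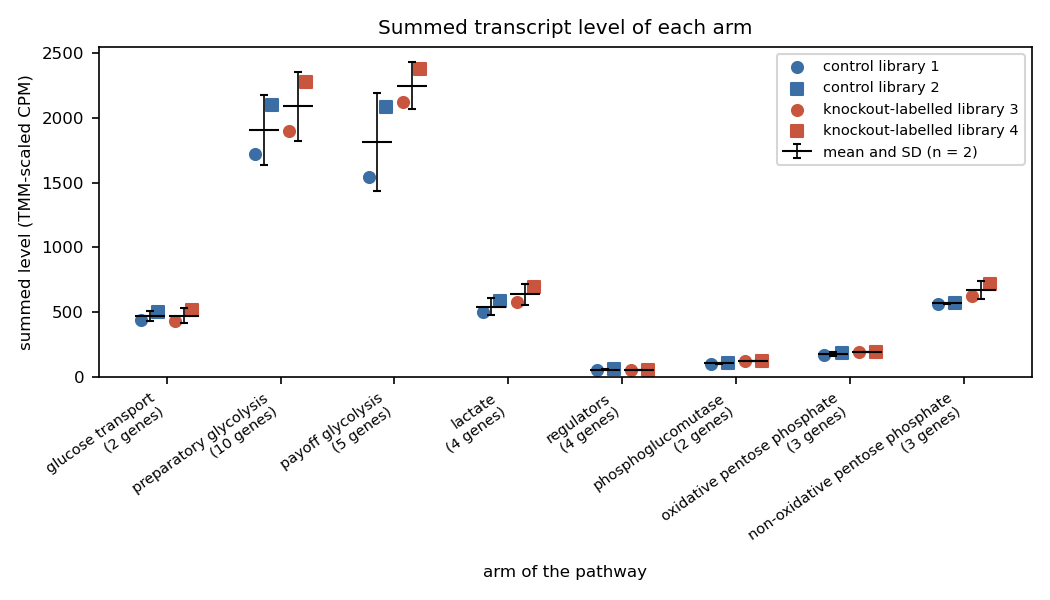
Summed level of the members in each arm of the pathway, in TMM-scaled CPM from 0, with 1 point for each library and bars for the mean and SD of each group (n = 2). Payoff glycolysis, the phosphoglucomutases and both pentose phosphate arms have both knockout-labelled libraries above both controls, and the other 4 arms overlap.

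Genes around the pathway, in lists chosen with earlier results of these data known, showed no edgeR call either. Of 33 further isozymes and partners 25 were tested and DESeq2 called 0. Unadjusted, 1 was higher (Eno3, or 4% beside 4.48% of all genes) and 2 were lower (Pklr and Eno4, or 8% beside 5.17%). Pklr, the liver and red cell pyruvate kinase, was at 4.43 and 1.38 against 0.558 and 0.773 CPM, so Pkm was the pyruvate kinase of these libraries. Eno3, the muscle enolase, was at 3.81 and 11.7 against 20.7 and 17.4 CPM (log2 fold change 1.30, adjusted p = 0.515 by edgeR). Shpk, which encodes sedoheptulokinase, was at 8.16 and 9.23 against 5.93 and 2.94 CPM. Slc2a2, Pgk2, Pdk4 and Tktl2 had 0 counts in all 4 libraries.

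Of 10 brakes and gluconeogenic genes, 8 were tested and 0 were called by edgeR or DESeq2. Unadjusted, 0 were higher (beside 4.48% of all genes) and 1 was lower (12.5%, beside 5.17%). The lower one was G6pc3, which encodes the widespread glucose-6-phosphatase, at 23.4 and 39.4 against 8.89 and 18 CPM (log2 fold change -1.22, SE 0.43, adjusted p = 0.451 by edgeR). Txnip, which restrains glucose uptake, was at 467.7 and 324.4 against 396.5 and 542.2 CPM, with overlap. Tigar, a bisphosphatase that diverts sugar to the pentose pathway, was at 7.19 and 10.4 against 12.5 and 13.6 CPM (0.58, adjusted p = 0.675 by edgeR).

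Of 10 genes for pyruvate entry into mitochondria, both tools called 0. Unadjusted, 0 were higher (beside 4.48% of all genes) and 1 was lower (10%, beside 5.17%). Pdp2, a pyruvate dehydrogenase phosphatase that counteracts the Pdk kinases, was at 106.7 and 149.2 against 84.2 and 82.1 CPM (log2 fold change -0.62, SE 0.20, adjusted p = 0.402 by edgeR). The mitochondrial pyruvate carrier genes Mpc1 (38.7 and 44.2 against 54.7 and 56.4 CPM) and Mpc2 (46.5 and 40.1 against 67.6 and 50.5 CPM) did not overlap between groups and had adjusted p-values in edgeR of 0.548 and 0.596.

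The 14 glycogen genes had a median log2 fold change of -0.36, against -0.01 over all genes. Unadjusted, 0 were higher (beside 4.48% of all genes) and 1 was lower (7.14%, beside 5.17%). That gene, Phkg2, a phosphorylase kinase subunit, was at 33.3 and 52.6 against 21.8 and 21.6 CPM (-0.99, SE 0.28, adjusted p = 0.366 by edgeR) and was called lower by DESeq2 (adjusted p = 0.0455, beside 1.29% of genes called lower).

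The 12 tested genes that make or use NADPH, use ribose phosphate or answer oxidative stress had a median of 0.41. Unadjusted, 2 were higher (16.7%, beside 4.48% of all genes) and 0 were lower (beside 5.17%). Without overlap, 8 of 12 lay above the controls (66.7%, beside 19.5% of all genes). Idh1, a cytosolic NADPH source, was at 25.8 and 18.6 against 51.0 and 39.8 CPM (1.03, SE 0.27, adjusted p = 0.329 by edgeR). It was called higher by DESeq2 (adjusted p = 0.0176, beside 1.61% of genes called higher). Hmox1, which encodes the haem oxygenase of macrophages and stressed cells, was at 2.45 and 5.17 against 11.7 and 11.1 CPM (adjusted p = 0.379 by edgeR), beside summed myeloid markers that were higher as well.

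Of 18 hypoxia genes outside glycolysis 16 were tested, with 0 called by DESeq2 and a median of 0.10. Unadjusted, 0 were higher and 0 lower, beside 4.48% and 5.17% of all genes. Bnip3l, which encodes a mitophagy receptor, was at 249.4 and 249.8 against 303.7 and 309.0 CPM (0.30, SE 0.13, adjusted p = 0.539 by edgeR). Ero1l, an oxidase of the endoplasmic reticulum, was at 7.04 and 8.91 against 4.14 and 5.89 CPM.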

How the data were processed

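RNA of CD49a-positive ILC1s was sequenced from low-input SMARTer libraries, per the labels' protocols. Raw counts per gene, as deposited by the authors, were used for 4 libraries (2 control, 2 labelled knockout). bcl2fastq, STAR, Subread, featureCounts and DESeq2 are named with the mm10 build, per the submitters' processing notes. The sources used here do not give the annotation, the strand setting or what each tool did.

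The 276 repeated lines of 40757 had identical counts and were dropped. Each library counted as 1 sample. Replicates differed far beyond sampling noise (chi-square per degree of freedom 90.9 in controls and 83.7 in knockout-labelled libraries), a spread that may be technical and does not show separate animals. Low-count genes were removed (filterByExpr), TMM factors computed and differences tested with edgeR 4.0.16 (robust quasi-likelihood, two-sided, genotype only, 2 residual degrees of freedom) in R 4.3.3, with Benjamini-Hochberg adjustment over 14863 genes, after a check on simulated data. Levels per length used merged exons of GENCODE M21, on the same assembly. Shares and sums were compared by exact permutation. Promoters came from RefSeq (GRCm38.p6). Motifs were searched on both strands, and a CACGTG counts once as E-box and on each strand as ACGTG. The alternatives tried were other scalings, filters and tests (DESeq2 1.42.0, limma 3.58.1), thinning, leaving out each library, and 2 chosen after the data were seen (copies added, replicate block). Members and lists were chosen with earlier results of these data known. All 33 members are named. In other lists, called genes and up to 4 with the smallest p could be named. Bsg, Slc2a2, Pgk2, Pdk3, Pdk4, Tktl2, Itga1, Cd3g and Eno1b were named after their values were seen. A comparison of protein sequences was not made.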

Additional observations from a re-analysis of the deposited data

How the results depend on the processing

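The count of members called, 0 in edgeR, was 1 with DESeq2 (Slc16a3) and 2 without a filter on low counts (Slc16a3 and Gapdh), and 0 under each other setting, including each of the 4 fits without 1 library. The median log2 fold change of the members was 0.19 and lay between 0.09 and 0.33 when 1 library was left out (0.33 without control library 2). The lower share of Pfkl at the phosphofructokinase step was -5.76 percentage points, -8.26 without division by length, and between -7.07 and -4.45 without 1 library. By the mean over the 4 libraries, the leading isozyme of each of the 9 steps was the same with merged exons, longest transcripts or no length. In single libraries without length, Pfkp lay above Pfkl in both knockout-labelled libraries (138.1 and 184.9 against 122.4 and 151.0 CPM) and below it in both controls. Pdk1 likewise lay above Pdk2 in control library 2 (14.7 against 11.1 CPM). Only members with fold changes near 0 turned sign outside the fits that left out a library: Slc2a3 was -0.01 without a filter and -0.03 with at least 50 counts in 2 libraries, and G6pdx was -0.01, -0.02 and, after thinning, -0.005. Without control library 1, control library 2, library 3 or library 4, 8, 2, 5 and 8 of the 33 changed sign, and Hk2, Slc16a3, Gapdh, Pfkm, Pdk1 and Taldo1 did not. For those that did, the log2 fold change without 1 library ranged over -0.07 to 0.19 (Slc2a1), -0.16 to 0.11 (Slc2a3), -0.02 to 0.15 (Hk1), -1.75 to 0.46 (Hk3), -0.18 to 0.22 (Gpi1), -0.40 to 0.04 (Pfkl), -0.02 to 0.38 (Aldoa), -0.06 to 4.72 (Aldoc), -0.02 to 0.45 (Pgk1), -0.0005 to 0.42 (Ldhb), -0.08 to 0.86 (Slc16a1), -0.19 to 0.47 (Pfkfb3), -0.20 to 0.89 (Pfkfb4), -0.44 to 0.51 (Pdk2), -0.25 to 0.32 (G6pdx), -0.59 to 0.57 (Pgls) and -0.03 to 0.08 (Tkt). The causes were not tested. The sum over all members had a log2 ratio of 0.20 and lay between 0.07 and 0.35 without 1 library. The sample titles give the groups no shared replicate number, but the column names of the table number both 1 and 2. Differences between numbers 1 and 2 correlated across genes between the groups (r = 0.141 over 14863 genes, which are not independent), and with 1 such pair of groups the numbers are not shown to pair the libraries. With them as a replicate block, a fit chosen after the data were seen, edgeR called 0 genes in all (1709 at an unadjusted p under 0.05) against 21 higher and 2 lower without it, 0 members, and a median of 0.20. Hk2, Slc16a1, Aldoc and Rpia had under 250 counts in each library, which limits their precision.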
